A study of Mus musculus with 8 samples.

Results

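The genes described here are 10 genes of the melanocyte lineage and of pigment formation, namely Mitf, Sox10, Kit, Mc1r, Dct, Tyrp1, Tyr, Pmel, Mlana and Slc45a2. They were taken by symbol, through the GENCODE mouse annotation, from the 55416 genes of an RNA-seq count table, by a rule that uses no measured value. The list itself was chosen with earlier results of these data known. The tissue was the dorsal epidermis of mice at P4 (postnatal day 4), peeled from the dermis after a brief heat treatment. In the RoraEKO mice, a Rora flox/flox strain had been crossed with K14-Cre, B6N.Cg-Tg(KRT14-cre), whose keratin 14 promoter is active in keratinocytes. The control libraries carry the genotype label WT, the study calls the controls littermates, and the sources used here do not say which Rora or Cre alleles they carried. There were 4 libraries of each genotype, named here by their titles, with A1, B1, C1 and C6 from control and A3, B4, C2 and C3 from RoraEKO epidermis. The meaning of the title letters A, B and C is not given in the labels.

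Melanocytes arise from the neural crest, enter the epidermis as melanoblasts and, in the haired skin of the mouse trunk, settle largely in the hair follicles. SOX10 and MITF are the transcription factors that direct the lineage, and KIT and MC1R are receptors through which signals from neighbouring cells reach it. The pigment is made in melanosomes, on fibres of PMEL, by the enzymes TYR, TYRP1 and DCT, and is then handed to keratinocytes.

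Promoter sequences of 6 of the 10 genes, Dct, Tyr, Tyrp1, Mc1r, Mitf and Kit, were matched in RefSeq (build GRCm38.p6), as 9 windows of 300 bases, from 250 before to 50 after an annotated start. Entries for Pmel, Mlana, Sox10 and Slc45a2 were missing. The letters TCATGTG, or their reverse complement CACATGA, are the core of the M-box, the element to which MITF binds in pigment gene promoters. They stood in the windows of Dct, Tyr, Tyrp1 and Mc1r, that is in 4 of the 6 genes, and in 3.77% of all 32851 RefSeq windows of this length. Neither the 3 windows of Mitf nor the 2 of Kit held them. The count is of genes, which together had 9 windows, whereas the share is of windows. Since the M-box is known from pigment gene promoters, a match there was not an independent observation. The stretches with the match are printed because they set the pigment enzymes and Mc1r apart from Mitf and Kit, as 250 bases upstream of the start for Dct and 120 for the others, 5′ to 3′ on the strand of the gene, with the M-box core in capitals. They lie at chr14:118052247-118052496 (minus strand, Dct), chr7:87493513-87493632 (minus strand, Tyr), chr4:80834093-80834212 (plus strand, Tyrp1) and chr8:123406962-123407081 (plus strand, Mc1r).
Dct: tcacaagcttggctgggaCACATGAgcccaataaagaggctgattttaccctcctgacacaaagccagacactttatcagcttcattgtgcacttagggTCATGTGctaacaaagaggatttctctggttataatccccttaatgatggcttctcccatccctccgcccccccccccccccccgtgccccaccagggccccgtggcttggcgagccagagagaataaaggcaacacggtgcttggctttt
Tyr: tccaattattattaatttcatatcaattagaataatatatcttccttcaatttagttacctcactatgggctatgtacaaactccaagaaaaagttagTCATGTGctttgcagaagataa
Tyrp1: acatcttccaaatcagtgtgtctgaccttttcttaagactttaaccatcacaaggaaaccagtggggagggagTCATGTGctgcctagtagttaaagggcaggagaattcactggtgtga
Mc1r: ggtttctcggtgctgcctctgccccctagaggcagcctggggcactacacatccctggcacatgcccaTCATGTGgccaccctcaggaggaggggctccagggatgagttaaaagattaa
Counted from 0 at the start, the match began at base -22 in Tyr, -47 in Tyrp1, -52 in Mc1r and -151 in Dct, and a further match in Dct began at -232 on the opposite strand. The letters AGGTCA, the core of the elements bound by ROR receptors (reverse complement TGACCT), stood in a window of Dct, Tyr, Tyrp1 and Mitf, against 16.26% of all windows. Here too genes were counted beside a share of windows, and Mitf matched in 1 of its 3 windows. Only these letters were matched, without flanking bases. In Dct this match began at base 21, and in Tyr, Tyrp1 and Mitf it lay on the opposite strand from base -175, -98 and -152. No match overlapped an M-box core. These are matches of letters in the sequence, and binding was not measured.

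Each library held between 17286903 and 26705533 counts, so that 3 counts corresponded to 0.113 to 0.196 counts per 1e+06 counts (CPM). The targeted gene did not separate the genotypes at the gene level, with 212 ± 66.6 CPM (SD, n = 4) in control and 196 ± 34.6 CPM in the libraries labelled RoraEKO (log2 fold change -0.11, edgeR quasi-likelihood test, adjusted p = 0.877), and all directions given here rest on the genotype labels. Counts per gene do not resolve the floxed exons, so this value does not check the deletion. Xist, expressed from the inactive X chromosome, had 416 and 527 CPM in 2 control libraries, C1 and C6, and did not exceed 0.0546 CPM elsewhere. All 10 lineage and pigment genes had counts in all 8 libraries and passed the expression filter, though Mc1r in C3 rested on 2 counts. The melanosomal transcripts were thus detected in both genotypes, and which cells gave rise to those of Mitf and Kit was not tested. The gene bodies of Mitf, Dct, Pmel, Kit and Mc1r overlap genes on the opposite strand. The library kit kept strand, and whether the counting used it is not given in the sources used here.

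None of the 10 genes passed the cutoffs, a fold change of 1.5 at an adjusted p of 0.05, between the genotypes, where 5.51% of the 13147 genes tested were called, 3.22% lower and 2.3% higher in RoraEKO (edgeR quasi-likelihood test, Benjamini-Hochberg adjustment). Pigment gene levels nevertheless lay on the lower side in RoraEKO libraries. The log2 fold change was below 0 for 8 of the 10, against 56.1% of all genes tested, and the median was -0.82 against -0.04 over all genes tested. Several of the genes followed one another across the same libraries, so they do not count as 10 independent observations. Mitf and Kit had values above 0. Without adjustment, 4 genes, Tyr, Pmel, Dct and Sox10, had a p under 0.05 in the same test, against 10.3% of all genes on the lower side and 7.92% on the higher. With Xist as a covariate, the unadjusted p stayed under 0.05 for Tyr (0.0103) and Dct (0.0146). It was 0.0702 for Pmel and 0.136 for Sox10 (edgeR quasi-likelihood test). DESeq2 called 0 of the 10, with 518 genes higher and 573 lower, while the likelihood ratio test of edgeR called 1, Tyr, and the fit with the title letter as a block called 1, Dct. Pmel and Sox10 were lower in all 4 RoraEKO libraries than in any control library, and 7.54% of all genes tested had groups that did not overlap in this direction, and 5.4% in the opposite direction. Since the libraries are bulk tissue, fewer melanocytes and less RNA per melanocyte cannot be told apart in any of these values.

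**Figure D1:**
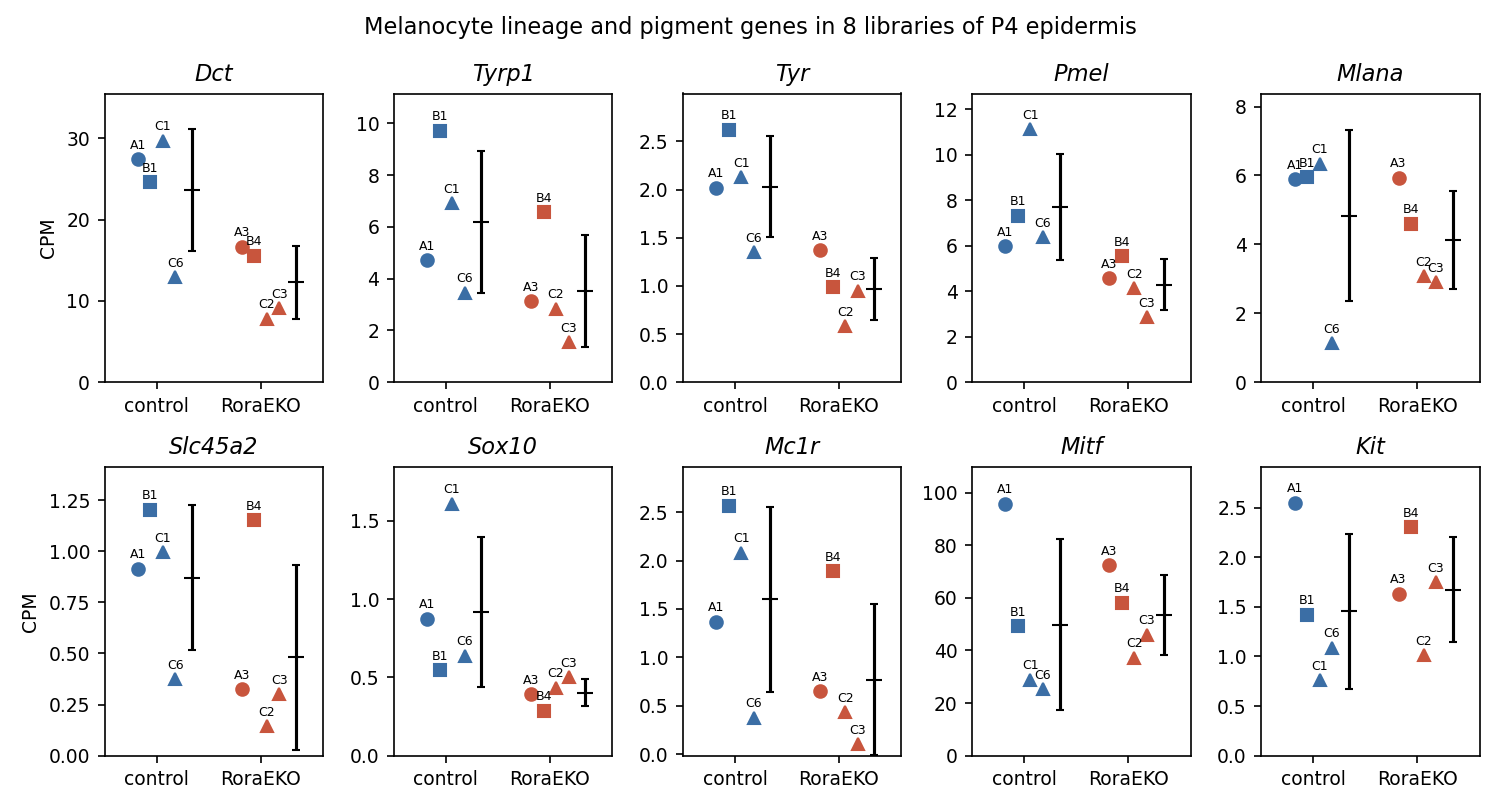
CPM of the 10 genes (one panel each, own linear axis) in the 4 control (blue) and 4 RoraEKO (red) libraries, with circles, squares and triangles for title letters A, B and C and bars for the mean ± SD. Pmel and Sox10 have no overlap between the genotypes, and C6 is the lowest control library in 7 panels.

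Dct was, per kilobase of exons, the most abundant of the pigment enzyme genes. It encodes dopachrome tautomerase, which acts late in eumelanin synthesis and is an early marker of melanoblasts (GRCm39 chr14:118250202-118289656, minus strand). Its level was 27.4 CPM in A1, 24.6 in B1, 29.7 in C1 and 12.9 in C6, against 16.6 in A3, 15.5 in B4, 7.81 in C2 and 9.09 in C3. The control libraries A1, B1 and C1 stood above all RoraEKO libraries, while C6 stood below A3 and B4. The means were 23.6 ± 7.47 and 12.3 ± 4.46 CPM (SD, n = 4 each), and the log2 fold change was -0.95 with an SE of 0.385 (adjusted p = 0.128, edgeR quasi-likelihood test). With the title letter as a block, Dct was the only one of the 10 genes past the cutoffs, at a log2 fold change of -1.0 (adjusted p = 0.0467, edgeR quasi-likelihood test), where 7.6% of all genes tested were called.

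Tyr encodes tyrosinase, the rate-limiting enzyme of melanin synthesis (chr7:87073979-87142720, minus strand). Its level was 2.02, 2.62, 2.13 and 1.35 CPM in A1, B1, C1 and C6, and 1.37, 0.986, 0.578 and 0.949 CPM in A3, B4, C2 and C3. The groups overlapped only through A3, which lay just above C6. The means of 2.03 ± 0.524 and 0.971 ± 0.324 CPM gave a log2 fold change of -1.07 with an SE of 0.300 (adjusted p = 0.104, edgeR quasi-likelihood test). In the likelihood ratio test of edgeR, Tyr alone among the 10 genes passed the cutoffs (adjusted p = 0.0455), where 7.67% of all genes tested were called.

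Tyrp1 encodes a further enzyme of the tyrosinase family that works on later intermediates and steadies tyrosinase (chr4:80752360-80769956, plus strand). Its level was 4.72, 9.73, 6.91 and 3.45 CPM in A1, B1, C1 and C6, and 3.13, 6.57, 2.84 and 1.55 CPM in A3, B4, C2 and C3. In each genotype the library of letter B was the highest, and B4 lay above the controls A1 and C6. Its log2 fold change was -0.80 with an SE of 0.524 (adjusted p = 0.403, edgeR quasi-likelihood test), and it was -1.30 without B4 and -0.50 without B1.

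Pmel and Mlana encode structural proteins of the melanosome. PMEL forms the fibres on which melanin is laid down (chr10:128540064-128556107, plus strand). It measured 5.98, 7.32, 11.1 and 6.38 CPM in A1, B1, C1 and C6, and 4.57, 5.55, 4.14 and 2.85 CPM in A3, B4, C2 and C3. Every control library was above every RoraEKO library, though the gap between A1 and B4 was narrow. The means of 7.70 ± 2.35 and 4.28 ± 1.12 CPM gave a log2 fold change of -0.84 with an SE of 0.280 (adjusted p = 0.104, edgeR quasi-likelihood test). Pmel lies among overlapping genes on the opposite strand, Cdk2 and Dgka.

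Mlana encodes a protein of early melanosomes needed for PMEL maturation (chr19:29674900-29686034, plus strand). It measured 5.90, 5.96, 6.34 and 1.13 CPM in A1, B1, C1 and C6, and 5.94, 4.60, 3.08 and 2.90 CPM in A3, B4, C2 and C3. C6 was the lowest of all 8 libraries and A3 was level with A1 and B1. For Mlana the log2 fold change was -0.23 with an SE of 0.632 (adjusted p = 0.880), and -0.53 without C6 (adjusted p = 0.355, both by the edgeR quasi-likelihood test). It was -0.04 without C2 and -0.06 without C1 (adjusted p = 0.991 and 0.975, same test).

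Slc45a2 encodes a melanosomal transporter that helps to set the pH of the organelle (chr15:11000803-11029319, plus strand). It was near the counting limit, with 3 to 28 counts per library. Its level was 0.914, 1.202, 0.994 and 0.375 CPM in A1, B1, C1 and C6, and 0.326, 1.15, 0.145 and 0.300 CPM in A3, B4, C2 and C3. B4 stood with the controls, and C6 stood with the remaining RoraEKO libraries. The log2 fold change was -0.80 with an SE of 0.599 (adjusted p = 0.580), and it was -1.75 without B4 (adjusted p = 0.132, both by the edgeR quasi-likelihood test). Without C2 it was -0.42 (adjusted p = 0.856, same test).

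Of the lineage transcription factors, Sox10 and Mitf had log2 fold changes of opposite sign. Sox10 marks neural crest derivatives, melanocytes and Schwann cells alike (chr15:79039108-79049469, minus strand). It measured 0.875, 0.546, 1.61 and 0.638 CPM in A1, B1, C1 and C6 and 0.392, 0.288, 0.434 and 0.499 CPM in A3, B4, C2 and C3. All 4 RoraEKO libraries were below all controls, by little between C3 and B1, and they held 6 to 10 counts each where the controls held 10 to 34. The log2 fold change was -1.18 with an SE of 0.341 (adjusted p = 0.167, edgeR quasi-likelihood test), and it was -0.77 without C1, the highest control library.

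Mitf, whose product drives the pigment enzyme genes, is also transcribed from other promoters outside melanocytes (chr6:97783950-97998323, plus strand). It measured 95.8, 49.2, 28.9 and 25.3 CPM in A1, B1, C1 and C6, and 72.4, 58.1, 37.2 and 46.0 CPM in A3, B4, C2 and C3. Levels were highest in letter A and lowest in letter C within each genotype, and the genotypes overlapped throughout. The means of 49.8 ± 32.4 and 53.4 ± 15.2 CPM gave a log2 fold change of 0.10 with an SE of 0.483 (adjusted p = 0.944, edgeR quasi-likelihood test). The sign was not stable, since the log2 fold change was -0.09 without C6 and -0.47 with Xist as a covariate.

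The receptors Kit and Mc1r also differed in sign. Kit, the receptor of KIT ligand, is needed for melanoblast survival and migration and is carried by mast cells as well (chr5:75735576-75817404, plus strand). It measured 2.55, 1.42, 0.757 and 1.09 CPM in A1, B1, C1 and C6, and 1.63, 2.30, 1.01 and 1.75 CPM in A3, B4, C2 and C3, with full overlap. The log2 fold change was 0.20 with an SE of 0.416 (adjusted p = 0.877, edgeR quasi-likelihood test), and -0.27 with Xist as a covariate.

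Mc1r, the melanocortin receptor that switches melanocytes to eumelanin, lies at chr8:124133846-124137483 on the plus strand. It measured 1.37, 2.57, 2.08 and 0.375 CPM in A1, B1, C1 and C6, and 0.653, 1.89, 0.434 and 0.0999 CPM in A3, B4, C2 and C3, the last of these resting on 2 counts. As with Slc45a2, B4 stood with the controls and C6 with the lower RoraEKO libraries. The log2 fold change of -1.01 had an SE of 0.892, the largest of the 10 (adjusted p = 0.572), and it was -2.02 without B4 (adjusted p = 0.216, both by the edgeR quasi-likelihood test). It was -0.65 without C3 and -0.69 without B1 (adjusted p = 0.776 and 0.812, same test).

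C6 was the lowest control library for 7 of the 10 genes, including 5 of the 6 melanosomal genes (Dct, Tyr, Tyrp1, Pmel, Mlana and Slc45a2), and for 29.1% of all genes tested, and C2 or C3 was the lowest RoraEKO library for 9 of the 10 and for 44.9% of all genes tested. Summed over the 6 melanosomal genes, the level was 46.9, 51.4 and 57.2 CPM in A1, B1 and C1 but 25.6 CPM in C6, against 32.0, 34.4, 18.6 and 17.6 CPM in A3, B4, C2 and C3. C6 thus stood below A3 and B4 and above C2 and C3. Without C6, a setting chosen after the values were seen, Tyr, Dct, Pmel and Sox10 did not overlap between the genotypes, and 9.93% of all genes tested then had RoraEKO libraries below all controls. In the fit without C6, which called 271 genes higher and 304 lower, 0 of the 10 passed the cutoffs, with Dct nearest at a log2 fold change of -1.12 (adjusted p = 0.0528), followed by Tyr at -1.19 (adjusted p = 0.0986), Pmel at -0.90 (adjusted p = 0.128) and Sox10 at -1.30 (adjusted p = 0.178, all by the edgeR quasi-likelihood test).

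Within title letters, 7 of the 10 genes, all but Mlana, Mitf and Kit, were lower in RoraEKO in A, B and C alike, as were 25.1% of all genes tested. For Dct the difference of mean log2 CPM was -0.72 in A, -0.66 in B and -1.21 in C, and for Sox10 it was -1.0, -0.75 and -1.0. Pmel differed by -0.38 and -0.39 in A and B and by -1.27 in C. Like that of Dct, its difference was largest in letter C. Tyr differed by -0.53, -1.33 and -1.10, and Tyrp1 by -0.58, -0.56 and -1.18. For Mc1r the values were -0.97, -0.42 and -1.66 and for Slc45a2 -1.26, -0.06 and -1.23, so that the difference in letter B was the smallest for both. Mlana differed by 0.01, -0.37 and 0.14, where the last value rests on the low C6, and the fitted log2 fold change in letter C alone was -0.31. For Mitf the differences were -0.40, 0.24 and 0.61, and for Kit -0.62, 0.66 and 0.51. Letters A and B hold 1 library of each genotype, and both Xist-expressing libraries are the controls of letter C, so that within letter C this difference and genotype cannot be told apart. The interaction of genotype and letter was called for 0 of the 10 genes, against 0.038% of all genes tested, and for 1 of them, Mitf, its unadjusted p was under 0.05, against 5.47% of all genes (adjusted p = 0.880, edgeR quasi-likelihood test).

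**Figure D2:**
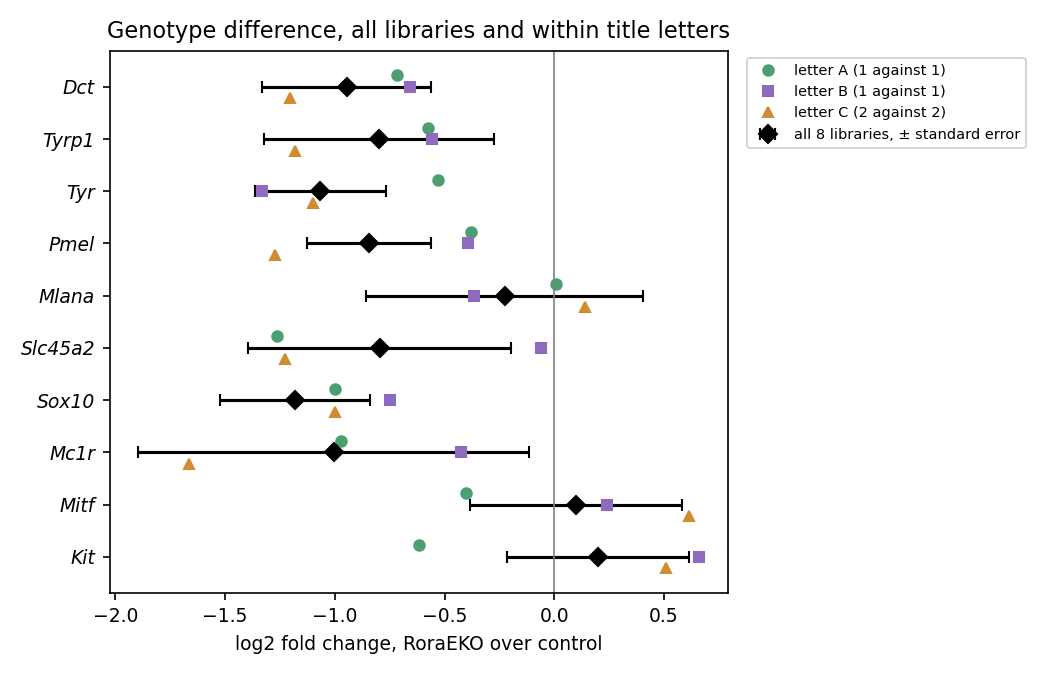
Log2 fold change of RoraEKO over control (horizontal axis) for each gene, from all 8 libraries (black, ± SE) and as the difference of mean log2 CPM within title letter A (circles), B (squares) and C (triangles). All marks of Dct, Tyrp1, Tyr, Pmel, Slc45a2, Sox10 and Mc1r lie below 0, and those of Mlana, Mitf and Kit fall on both sides.

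The title letter itself, tested with genotype as a term, passed an adjusted p of 0.05 for 0 of the 10 genes, against 0.0532% of all genes tested, and for 2 of them, Mitf and Tyrp1, the unadjusted p was under 0.05. Mitf came nearest, at a log2 difference of -1.34 between letters C and A (adjusted p = 0.0548, edgeR quasi-likelihood test), and 24.1% of all genes had an unadjusted p under 0.05 in this test. With Xist as a further term, the Mitf difference was -0.93 (adjusted p = 0.413, edgeR quasi-likelihood test), and the Xist-expressing libraries are of letter C. Tyrp1 was higher in letter B than in A by 1.07 on the log2 scale (adjusted p = 0.124, edgeR quasi-likelihood test). For the other 8 genes the adjusted p was between 0.224 and 0.826 in the same test. Hair follicle genes were read beside Mitf, without a test of the letter. The summed level of 8 inner root sheath genes was 49323 and 32668 CPM in A1 and A3, 25461 and 32108 CPM in B1 and B4, and 7964 to 15659 CPM in the 4 libraries of letter C. For 15 hair matrix and shaft genes it was 12357 and 10599 CPM in letter A, 4768 and 8125 CPM in B, and 3230 to 6577 CPM in C, so that B1 lay below 3 libraries of letter C. Outer root sheath genes summed to 3425 and 3516 CPM in A1 and A3, 2856 and 1962 CPM in B1 and B4, and 1230 to 2132 CPM in letter C. Of the melanosomal sums given above, the highest, in C1, and the 3 lowest, in C3, C2 and C6, were all of letter C. The part of hair follicle content in the levels of Mitf and of the other genes was not tested.

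**Figure D3:**
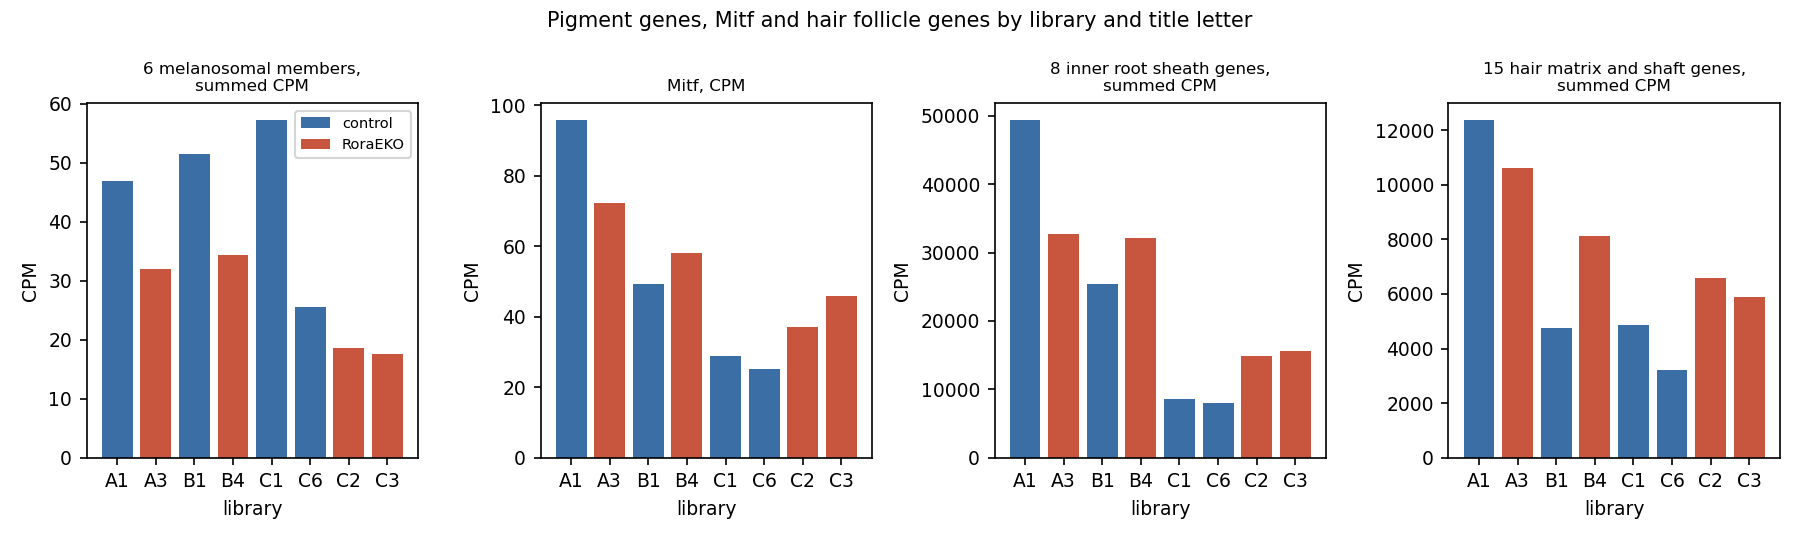
Summed CPM of the 6 melanosomal genes, CPM of Mitf, and summed CPM of 8 inner root sheath and 15 hair matrix and shaft genes (linear axes from 0), by library, ordered by title letter, with control in blue and RoraEKO in red. Mitf and the inner root sheath sum are highest in A1, whereas the melanosomal sum is highest in C1 and lowest in C2 and C3.

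Levels were compared between genes per kilobase of merged exons. In control epidermis Mitf had 4.91 ± 3.20 CPM per kilobase, Mlana 4.13 ± 2.12, Dct 4.01 ± 1.27, Pmel 3.36 ± 1.03 and Tyrp1 2.19 ± 0.972 (SD, n = 4 each). The mean ± SD ranges of neighbours in this order overlapped. A second tier followed, with Mc1r at 0.440 ± 0.262, Slc45a2 at 0.292 ± 0.118, Tyr at 0.286 ± 0.0737, Sox10 at 0.275 ± 0.145 and Kit at 0.154 ± 0.0823 CPM per kilobase, again with overlapping mean ± SD ranges between neighbours. The lowest Tyrp1 value, 1.22 in C6, was above the highest value of the second tier, 0.706 for Mc1r in B1. In RoraEKO the first 6 places kept this order, and Kit, at 0.177 ± 0.0558 CPM per kilobase, came before Slc45a2, Tyr and Sox10. The exon length chosen mattered for Mitf, Dct and Kit, which stood at 10.03, 6.83 and 0.273 CPM per kilobase in control when divided by their longest transcript, and in that order Dct preceded Mlana, and Tyr and Sox10 preceded Slc45a2.

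The make-up of the lineage signal was described by each gene's share of the summed CPM per kilobase. Dct made up 18.5% to 22.5% of it in control libraries and 12.1% to 14.9% in RoraEKO libraries, with means of 20.2% ± 1.94 and 13.9% ± 1.22 (SD, n = 4 each), and the genotypes did not overlap. Mitf made up 24.0% ± 10.4 and 36.0% ± 4.58, with overlap, and Mlana 19.1% ± 6.74 and 23.7% ± 2.36. A share depends on the other 9 genes as well, among them Mitf, whose cell source was not tested. Against the mean of the other melanosomal genes, Dct differed by -0.21 on the log2 scale (SE 0.166), and the genotypes overlapped.

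Against the mean log2 level of the melanosomal genes of the same library, the genes differed in how closely they followed one another. Mitf was higher by 1.04 on the log2 scale in RoraEKO (SE 0.448), Kit by 1.04 (SE 0.476) and Mlana by 0.90 (SE 0.415). For the other 7 genes the difference was between -0.41, for Mc1r, and -0.07, for Pmel, with SEs from 0.166 to 0.559. The ranges of control and RoraEKO libraries overlapped for all 10 genes. For Mlana, the control ratio was -1.25 in C6 and between 0.07 and 0.44 in A1, B1 and C1, so the control mean rests heavily on C6. No test was run on shares or ratios.

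Dct followed the mean melanosomal profile over the 8 libraries most closely among the 10, with a root mean square distance of 0.19 on the log2 scale, against 0.33 for Tyr, 0.35 for Tyrp1 and for Pmel, 0.40 for Slc45a2 and 0.57 for Mlana, all of which entered that mean. Sox10 at 0.63, Mc1r at 0.71, Mitf at 0.76 and Kit at 0.78 lay farther off than a gene with a flat profile would, at 0.61. Among 11771 other genes with a mean of at least 1 CPM, whose median distance was 0.67, the 5 nearest were Fggy at 0.20, Fth1 and Cavin3 at 0.24, Impa2 at 0.26 and Ndufv3 at 0.27. Fth1, the ferritin heavy chain that stores iron, measured 71.4 to 109 CPM in control and 39.1 to 66.6 CPM in RoraEKO libraries and passed the cutoffs, with a log2 fold change of -0.94 (adjusted p = 0.0247, edgeR quasi-likelihood test). Ndufv3, a subunit of respiratory complex I, also passed them, at 31.04 to 43.5 CPM against 17.8 to 27.8 CPM and a log2 fold change of -0.79 (adjusted p = 0.0308, edgeR quasi-likelihood test). Fggy, Cavin3 and Impa2 did not, with adjusted p between 0.307 and 0.664 in the same test. The choice by likeness favours genes that were lower in RoraEKO, so these p-values are no independent support.

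In the 6 other lists of melanocyte biology, 4 of 57 genes tested were called, 7.02%, near the 5.51% of all genes tested. Of 10 melanosome channel and cargo genes, 9 were tested, and 2 rose, with a list median of -0.25 on the log2 scale. Slc7a11, the cystine transporter whose loss lowers pheomelanin and which many cell types use against oxidative stress, was at 1.83, 0.929, 2.18 and 0.676 CPM in A1, B1, C1 and C6 and at 15.7, 46.8, 20.9 and 13.9 CPM in A3, B4, C2 and C3. It rose 17.3-fold (log2 fold change 4.11, SE 0.539, adjusted p = 0.00165, edgeR quasi-likelihood test). Tpcn2, a cation channel of melanosomes and lysosomes, rose from 5.65 ± 1.33 to 11.3 ± 0.976 CPM (log2 fold change 0.99, edgeR quasi-likelihood test, adjusted p = 0.0111). The most abundant genes of this list, Gpnmb and Cd63, are also made outside melanocytes and measured 82.5 ± 78.6 and 32.5 ± 6.54 CPM in control against 67.0 ± 54.9 and 27.4 ± 4.94 CPM in RoraEKO. Slc24a5, a melanosomal ion exchanger, and Trpm1, an MITF target gene, had log2 fold changes of -1.64 (adjusted p = 0.0718) and -0.78 (adjusted p = 0.318, both by the edgeR quasi-likelihood test).

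Of 10 ligands and antagonists, 5 were tested and 1 fell, with a list median of -0.45. Hgf, a growth factor that supports melanoblasts through MET, was at 3.58, 2.08, 2.94 and 6.27 CPM in A1, B1, C1 and C6 and at 0.457, 0.123, 0.867 and 0.749 CPM in A3, B4, C2 and C3, a log2 fold change of -2.76 (SE 0.585, adjusted p = 0.0152, edgeR quasi-likelihood test). Kitl, the ligand of KIT, was at 0.793 ± 0.212 and 0.561 ± 0.430 CPM (adjusted p = 0.752, same test). The most abundant, Bmp4 and Agrp, were at 19.7 and 3.31 CPM in control and 17.9 and 2.92 CPM in RoraEKO. Edn3, Pomc and Fgf2 had 3 to 8 counts over all libraries, and Asip and Dkk1 had 0. Among 8 tested of 10 receptor and signalling genes (most abundant Gnas and Ece1, median 0.07) and 8 tested of 10 melanoblast transcription factors (most abundant Tfap2a and Tfe3, median -0.02) none was called. Pax3, a regulator of Mitf, had 46 counts in all and was not tested.

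The genes that build and move melanosomes also serve other organelles. All 21 genes for melanosome biogenesis and sorting were tested, with a median of -0.06, and 1 fell, Snapin, a subunit of the BLOC-1 complex, from 21.4 ± 3.04 to 12.7 ± 1.23 CPM (log2 fold change -0.75, edgeR quasi-likelihood test, adjusted p = 0.0114). The most abundant of these, Ap3d1 and Rab38, were at 78.1 and 75.7 CPM in control and 70.8 and 102 CPM in RoraEKO. Of 7 transport genes, 6 were tested and none was called, with a median of -0.02 and Rab11b and Kif5b as the most abundant. Rab27a, which ties melanosomes to myosin, was higher in all RoraEKO libraries, at 30.6 ± 4.56 against 44.4 ± 3.93 CPM (adjusted p = 0.0459, edgeR quasi-likelihood test), and its fold change of 1.45 was under the cutoff.

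**Figure D4:**
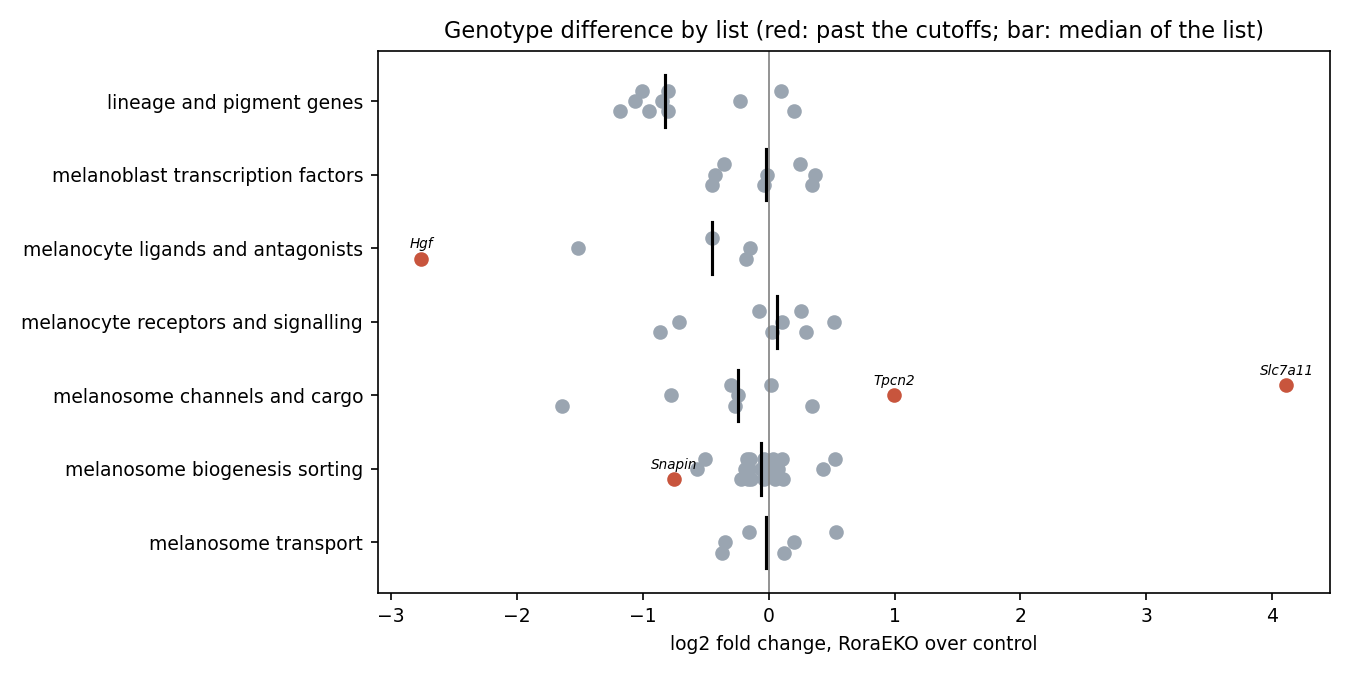
Log2 fold change of RoraEKO over control (horizontal axis) for the tested genes of each melanocyte list, 1 point per gene, with red for genes past the cutoffs and a black bar at the list median. The lineage and pigment genes have a median of -0.82 with none called, and Slc7a11, Tpcn2, Hgf and Snapin are the called genes of the other lists.

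Markers of other cells that carry Sox10 or Kit were read beside these genes. Of 12 Schwann cell genes 6 were tested and none was called, with summed levels of 176 to 251 CPM in control and 201 to 235 CPM in RoraEKO, largely Erbb3, which keratinocytes also express, and Mbp. Of 11 mast cell genes 4 were at 0 in all libraries and only Mrgprb2 was tested, and their sum was 9.21 to 33.7 CPM in control and 1.23 to 14.2 CPM in RoraEKO, most of it Mrgprb2 (log2 fold change -1.66, edgeR quasi-likelihood test, adjusted p = 0.165). The median log2 fold change was 0.11 over the 15 hair matrix and shaft genes, -0.09 over the 8 inner root sheath genes and -0.06 over 6 tested of 8 outer root sheath genes, with none, 1 and none called. Interfollicular keratinocyte genes summed to 37341 to 63837 CPM in control and 78778 to 99764 CPM in RoraEKO libraries, without overlap. Krt1 and Krt10 carried this sum, the other 5 genes of the list overlapped between the genotypes, none of the 7 was called, and the list median was 0.08. Of all genes tested, 5.4% were higher in RoraEKO without overlap, and 5.51% were called in either direction. Dermal fibroblast genes summed to 19.3 to 28.1 and 32.8 to 55.5 CPM, also without overlap, which Postn carried as the 1 gene called of 5 tested, while the other 4 overlapped. Endothelial genes summed to at most 1.83 and 3.61 CPM, with 1 of 6 tested and none called. The part of these other cells in the pigment gene levels was not tested.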

How the data were processed

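RNA was sequenced from the P4 dorsal epidermis of 4 control and 4 RoraEKO mice. Per the labels and the study's methods, libraries were prepared with a stranded poly(A) kit, reads were mapped to GRCm39 with STAR 2.5.3a and counted per gene with RSEM. The authors deposited expected counts without normalization, of which 2.99% were not whole numbers. The release of their annotation is not given in the sources used here. Of 55416 gene identifiers, 54749 were found in GENCODE vM39, from which symbols, coordinates and exon lengths were taken.

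Expected counts were rounded, filtered with filterByExpr (13147 genes), scaled by TMM and entered in edgeR 4.0.16 (quasi-likelihood test in its legacy form, R 4.3.3), without covariates, with Benjamini-Hochberg adjustment over all genes tested. A gene was called at a fold change of 1.5 and an adjusted p of 0.05. A fold change is RoraEKO over control. Its SE was computed from the log2 CPM values (prior count 2) of the libraries in each genotype. The title letter was tested with genotype as a term, and their interaction in a joint model. CPM values and the limit of 3 counts use TMM-scaled library sizes, and that limit covers counting error only. The script was tested on simulated data.

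The 10 genes and all other lists were chosen with earlier results of these data known. Named beside them were the genes of each list past the cutoffs, the 2 of highest mean CPM in each list, and the 5 genes nearest in profile. Rab27a, Kitl, Edn3, Pomc, Fgf2, Asip, Dkk1, Pax3, Slc24a5 and Trpm1 lay outside this rule and were chosen after their values were seen. Alternatives were other scalings (RLE factors, library size), tests (the non-legacy form, the edgeR likelihood ratio test, DESeq2 1.42.0), filters, cutoffs, covariates, subsets of libraries and each library left out. The study gives 4 mice per genotype, and p-values measure the spread between these libraries.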

Additional observations from a re-analysis of the deposited data

Results flagged for a closer look

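Mlana in the control library C6, at 1.13 CPM, stood apart from the other control libraries, which lay between 5.90 and 6.34 CPM. The gap was 0.915 of the range of the 4 control values, above the critical value of Dixon's test for 4 values. Each of the 10 genes was examined in both genotypes, 20 groups of 4 libraries, and 1 was flagged, whereas chance flags about 1 in 20. C6 was also the lowest control library for 6 further genes, none of which met the criterion.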

How the results depend on the processing

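The 8 genes with log2 fold changes below 0 kept that direction in all alternative fits in which they could be tested, 20 for Dct, Tyr, Tyrp1, Pmel and Mlana, 19 for Sox10 and 18 for Mc1r and Slc45a2, not counting changes of the cutoffs alone. The number of genes past the cutoffs among the 10 stayed at 0 except for 1 in the likelihood ratio test (Tyr) and 1 with the title letter as a block (Dct), and it was 0 whichever library was left out. The direction of Mitf was reversed with Xist as a covariate (-0.47), in the libraries without Xist (-0.38) and in letters A and B (-0.082), and it ranged from -0.09 to 0.63 with 1 library left out, below 0 without A3 (-0.021), C1 (-0.087) or C6 (-0.085). Kit was reversed with Xist as a covariate (-0.27), in libraries without Xist (-0.19) and, when 1 library was left out, without C1 (-0.011) and without B4 (-0.000027), with a highest value of 0.63. The causes were not tested.

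Over all genes, 302 were called higher and 423 lower. DESeq2 called 518 and 573, the likelihood ratio test 433 and 576, the title letter as a block 420 and 579, Xist as a covariate 182 and 290, libraries without Xist 147 and 167, letters A and B alone 12 and 24, and letter C alone 290 and 272, the last 3 with fewer libraries. With 1 library left out, 174 to 383 genes were higher (lowest without B1, and 188 without C3) and 283 to 513 lower. Calls were higher for 41.7% of called genes with TMM, 45.4% with RLE factors and 33.7% with library size alone, where the median of the 10 genes was -0.82, -0.79 and -0.88 and that of all genes -0.04, -0.01 and -0.10. With no expression filter, the title letter was called for 5 of the 10 genes instead of 0 (Mitf, at -1.34 between C and A, Tyrp1, Dct, Mlana and Mc1r), against 10.8% of all 23735 genes then tested and 18.4% of those that pass the filter, and the cause was not tested. The labels give no shared replicate numbers, and the title letter served as the only block. Counts per library fell to 2 for Mc1r, 3 for Slc45a2 and 6 for Sox10, where counting error is large.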

Other observations

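Outside the pigment genes, 2 of 49 tested markers of neighbouring cells passed the cutoffs, 4.08% against 5.51% of all genes tested. Gata3, a transcription factor of the inner root sheath that the interfollicular epidermis and lymphocytes also express, fell from 126 ± 36.3 to 74.3 ± 8.64 CPM (mean ± SD of 4 libraries), with a log2 fold change of -0.77 (edgeR quasi-likelihood test, adjusted p = 0.0493). Postn, which encodes the matrix protein periostin, rose from 14.1 ± 3.72 to 30.4 ± 7.93 CPM (log2 fold change 1.11, adjusted p = 0.0236, same test). The suprabasal keratins Krt1 and Krt10 were higher in all RoraEKO libraries than in any control library, as were 5.4% of all genes tested. They were not called, at a log2 fold change of 0.70 for Krt1 (adjusted p = 0.287) and 0.66 for Krt10 (adjusted p = 0.274, both by the edgeR quasi-likelihood test). The most abundant hair genes overlapped between the genotypes, with log2 fold changes of 0.37 for Krt83, 0.14 for Krt33a, 0.17 for Tchh, 0.04 for Krt71, 0.18 for Krt17 and 0.02 for Krt75.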
